A study of Homo sapiens with 4 samples.

Results

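The genes described here are the RAB small GTPases, taken from the authors' deposited table by symbol: RAB, a number and at most 1 further letter, with RAB27A and longer names such as RAB11FIP1 left out. By this rule 236 of the 91107 distinct H3K27ac regions of the authors' deposited table were assigned to a RAB gene, and 56 RAB genes had at least 1 region among the 17301 genes named. The number of protein-coding RAB genes in RefSeq (GRCh38.p14) that fit the same rule was 62, and RAB19, RAB39B, RAB40A, RAB41, RAB44 and RAB6D had no region in the authors' deposited table.

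RAB proteins are small GTPases of the Ras superfamily that mark the membranes of the secretory and endocytic pathways. Guanine nucleotide exchange factors load them with GTP, which lets them recruit effectors such as tethers and motor adaptors, and GTPase-activating proteins return them to the GDP form, which GDI extracts from the membrane. In pigment cells RAB32 and RAB38 act in the transport of melanin-making enzymes to melanosomes. Acetylation of histone H3 at lysine 27 (H3K27ac) is a mark of active promoters and enhancers.

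H3K27ac was measured by ChIP-seq in the A375 line, which was derived from a human melanoma and is grown in DMEM with fetal bovine serum. Vehicle (isopropanol) was given in 2 libraries and 1 mM octanoate, a medium-chain fatty acid, in 2, each for 48 hours. Nothing in the labels says whether the libraries of a group came from separate cultures, so the p-values may measure technical spread only. The question, per the series title, is how medium-chain fatty acids change chromatin in these cells. The authors' deposited table gives per region a mean level in normalized units, a log2 fold change between the groups, its standard error (SE) and p-values. It holds no value per library, so the depth of each library is unknown and no value per sample can be shown. Its header does not name the numerator of the fold change, so fold changes are called positive or negative here and not gains or losses under octanoate. A single factor of scaling between groups and a change common to all chromatin cannot be told apart in such a table. As a check of the cell type, the starts of 3 of 7 melanocytic markers (MITF, SOX10 and PMEL) lay in regions that the authors' deposited table lists with an adjusted p-value, and those of TYR, MLANA, DCT and TYRP1 in none. The PMEL region is also that of RAB5B and CDK2, so its acetylation is no sign of PMEL alone. Of 14 markers of keratinocytes, leukocytes, endothelium and hepatocytes, 1 had a region at its start in the authors' deposited table, APOA1, at a mean level of 9.80 and with no adjusted p-value.

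No RAB region reached significance (adjusted p under 0.05) in the authors' deposited table, whose column names are those of DESeq2. That table holds adjusted p-values for 97 of the 236 RAB regions, which belong to 51 of the 56 genes and are called tested regions. The 0 calls among 97 stand beside 1.67% called among the 36436 tested regions of the whole authors' deposited table (608 regions). At an unadjusted p-value under 0.05, 20 of the 97 RAB regions of the authors' deposited table were positive (20.6%) and 0 negative, beside 17.9% positive and 0.475% negative among all tested regions. Among RAB regions, the smallest adjusted p-value that the authors' deposited table gives was 0.108. The RAB share at an unadjusted p-value under 0.05 is thus near that of the whole table.

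The fold changes of RAB regions lay where those of the whole table lay. In the authors' deposited table the 97 tested RAB regions had a median of 0.36 on the log2 scale (quartiles 0.21 and 0.51, extremes -0.38 and 0.89), and 90 of them (92.8%) were positive. Over all tested regions of the authors' deposited table the median was 0.32 (quartiles 0.15 and 0.50), a ratio of 1.25, and 87.3% were positive. When each value of the authors' deposited table was lowered by this median and its SE left as it was, 0 RAB regions passed an adjusted p-value of 0.05, beside 0.124% of all tested regions. At an unadjusted p-value under 0.05 after this centring, there were 2 RAB regions (2.06%), both below the median, beside 5.73% of all tested regions. Both had negative fold changes before centring too, so none of the 20 positive regions could be among them (0 in common). The 95% interval of the fold change, a normal interval from the SE of the authors' deposited table, held the value 0.32 for 95 of the 97 tested RAB regions. The remaining 139 RAB regions of the authors' deposited table had no adjusted p-value, and their median log2 fold change was 0.20 with SEs of 0.39 to 1.37.

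**Figure D1:**
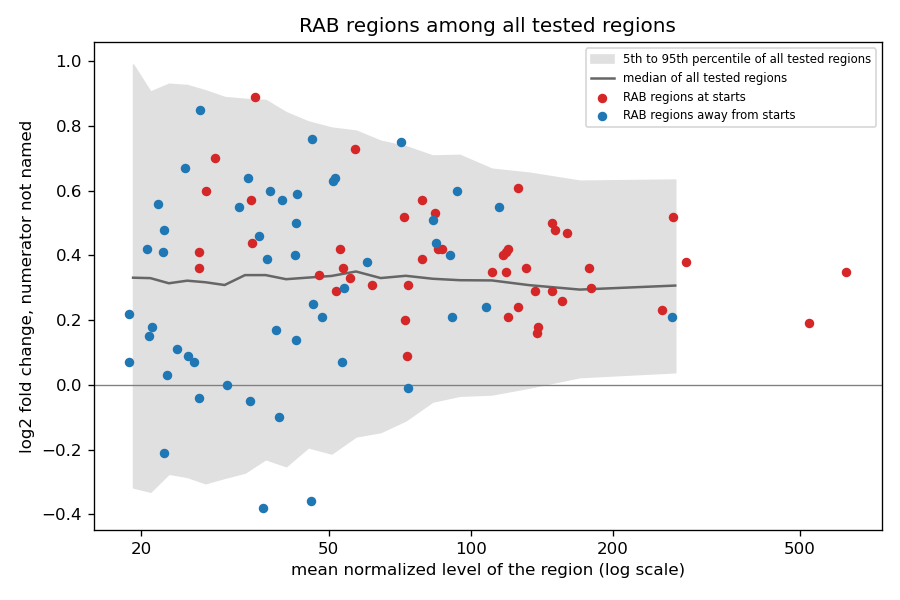
Mean normalized level (log axis) against log2 fold change for the 97 tested RAB regions, with regions at gene starts in red and others in blue. The grey band spans the 5th to 95th percentile and the grey line the median of all 36436 tested regions in 20 bins of level. The RAB points spread on both sides of the line, and the lowest, at -0.38, belongs to RAB7B.

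Nearly all RAB genes of the table carried H3K27ac at their start. A region that reaches the transcription start (listed distance 0) was found for 50 of the 56 RAB genes (89.3%) of the authors' deposited table, against 70.2% of all genes named. The set of RefSeq starts used here lacked 10 of these 50 genes, among them RAB38, RAB1A and RAB2A, which could not be checked. It held a start for the other 40, and for 39 of them that start lay inside the region. The exception was RAB3D, whose listed start region (chromosome 19, 11345041 to 11347481) is shared with TMEM205 and CCDC159, while the RefSeq start lies in a second region 6129 bases away (chromosome 19, 11338662 to 11340142). RAB25, RAB37, RAB3C, RAB42, RAB43 and RAB9B had regions in the authors' deposited table but none at the start. For RAB43, a Golgi RAB, a region of 3331 bases lay 386 bases from the start, and the authors' deposited table gives it a level of 108 and a log2 fold change of 0.24 (SE 0.26).

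The 50 start regions differed in strength. Per kb of region, the mean level computed from the authors' deposited table ran from 10.3 at RAB6C to 45.2 at RAB26. This was a span of 4.38 times, and the median was 27.5 beside 25.3 for all starts. Over tested starts only, the medians were 27.8 for RAB genes and 25.8 for all genes. Of the 50, 28 lay above that median of 25.8. RAB26, which acts in regulated secretion, had 45.2 per kb over 11593 bases, but its region also covers TRAF7. RAB34, a Golgi and cilium RAB, had 44.4 per kb over 14074 bases, the widest RAB region, which it shares with NEK8, RPL23A and TLCD1. RAB4B, of recycling endosomes, had 42.5 per kb in a region shared with MIA. The highest starts per kb with no second gene named in the authors' deposited table were RAB13, which acts in junction and polarized transport, and RAB20, both at 40.1. At the low end were RAB6C (10.3), RAB33A (12.2), RAB39A (14.0) and RAB17 (14.9 per kb). The melanosome RABs lay below the median, at 15.5 per kb for RAB32 and 18.7 for RAB38. The table analysed gives no error for a mean level, so it cannot be said which neighbours in this order differ.

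**Figure D2:**
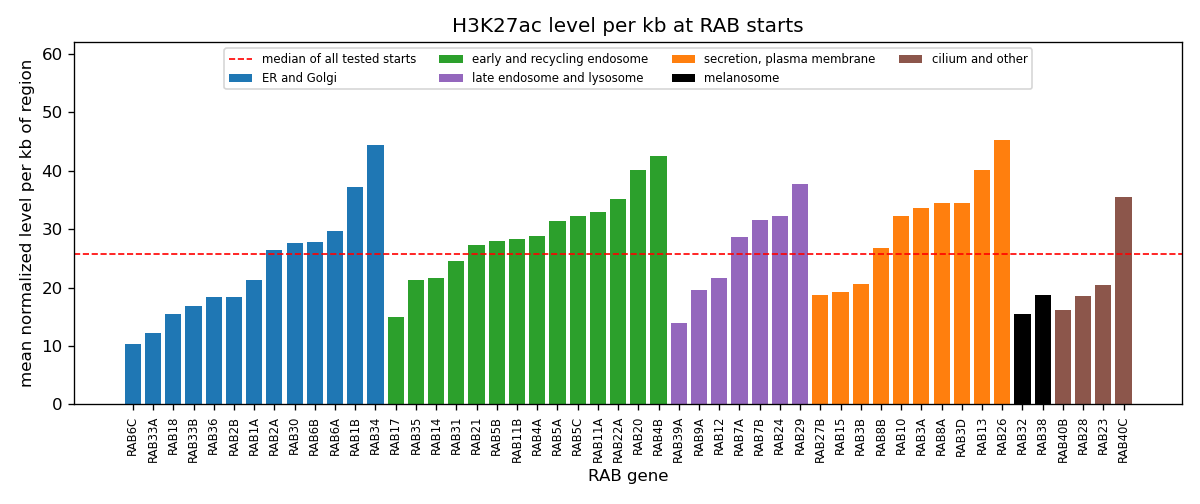
Mean normalized level per kb of region at the starts of 50 RAB genes, in groups by the membrane on which the protein acts and ordered within each group. The dashed line is the median of all tested starts (25.8), and the bars run from 10.3 at RAB6C to 45.2 at RAB26.

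In the authors' deposited table all 50 RAB starts were positive, as were 97.7% of all start regions. The median of the 47 tested RAB starts was 0.36 (quartiles 0.30 and 0.47) in the authors' deposited table, against 0.35 (0.24 and 0.49) for all 9996 tested starts. Of the 47, 10 had in the authors' deposited table an unadjusted p-value under 0.05 (21.3%), beside 19.2% of all tested starts. Regions named with another gene as well made up 13 of the 50 RAB starts and 4 of these 10. The 95% interval of every one of the 47 held the start median of 0.35. For 34 of the 47 the upper limit lay below a log2 fold change of 1, so a doubling lay outside the interval, and the highest upper limit was 1.57, at RAB6B. Fold changes of the authors' deposited table were smaller at starts of higher level, with a Spearman rho of -0.330 over the 47 RAB starts and -0.304 over all tested starts. These correlations are across regions of the same 4 libraries and serve as a description.

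**Figure D3:**
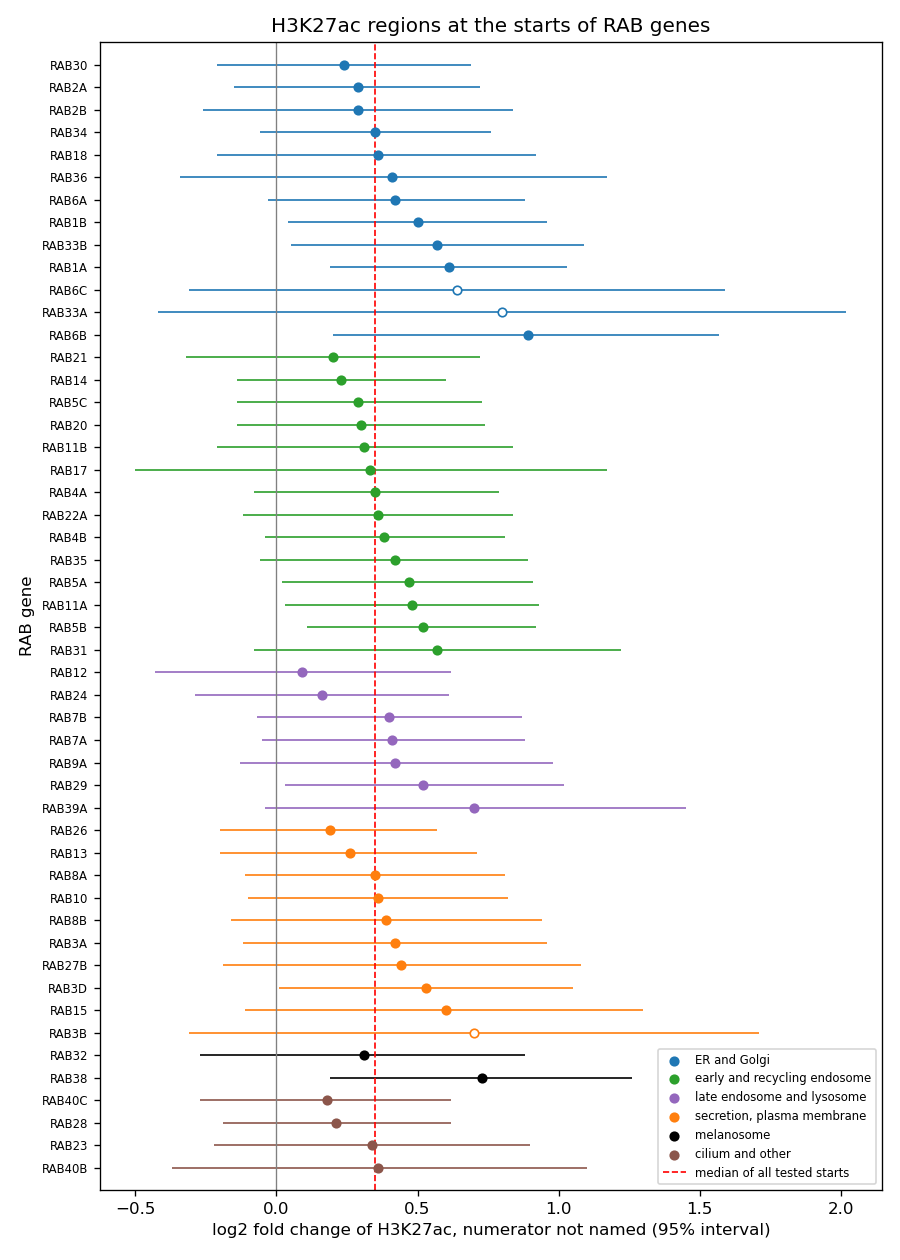
Log2 fold change with its 95% interval for the region at the start of 50 RAB genes, grouped by membrane, with open points for the 3 regions without an adjusted p-value. All points lie right of 0, and the intervals of all tested starts cross the dashed line, the median of all tested starts (0.35).

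Among the RABs of the endoplasmic reticulum and Golgi, RAB6B had the largest log2 fold change of a tested RAB start in the authors' deposited table, 0.89 with an SE of 0.35 (unadjusted p = 0.0114, adjusted p = 0.163) at a mean level of 34.9. Its region (chromosome 3, 133895031 to 133896285) was also the narrowest of the tested RAB starts, at 1254 bases. RAB6A, the ubiquitous paralogue that drives transport within and from the Golgi, had 0.42 with an SE of 0.23 at a mean level of 120 in the authors' deposited table. The intervals of the pair overlapped, from 0.20 to 1.57 for RAB6B and from -0.03 to 0.88 for RAB6A. RAB1A and RAB1B, which act in transport from the endoplasmic reticulum to the Golgi, had 0.61 (SE 0.21, unadjusted p = 0.00436, adjusted p = 0.109) and 0.50 (SE 0.23, adjusted p = 0.234) in the authors' deposited table. The RAB1B region also covers KLC2. RAB2A and RAB2B, which act at the Golgi, both had 0.29 in the authors' deposited table, with SEs of 0.22 and 0.28, and the RAB2B region also covers TOX4. RAB33B, which binds ATG16L1 in autophagy, had 0.57 (SE 0.27) in the authors' deposited table, and RAB18, found on lipid droplets and the endoplasmic reticulum, 0.36 (SE 0.29). Over the group the 11 tested starts had a median of 0.41 in the authors' deposited table. The unadjusted p-value lay under 0.05 at 4 of the 11, where 19.2% of all tested starts did so.

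The early and recycling endosome RABs lay close together. Their 14 tested starts ran from 0.20 at RAB21 to 0.57 at RAB31 in the authors' deposited table, with a median of 0.35, and 3 of the 14 had an unadjusted p-value under 0.05 (19.2% of all tested starts). RAB5A, RAB5B and RAB5C, the RABs of early endosome fusion, had 0.47 (SE 0.23), 0.52 (SE 0.21) and 0.29 (SE 0.22) in the authors' deposited table, with adjusted p-values of 0.254, 0.167 and 0.433. The RAB5A region also covers EFHB. The RAB5B region (chromosome 12, 55965998 to 55975664) covers 9666 bases with the genes PMEL and CDK2 as well, so its mean level of 269 cannot be assigned to one of them. RAB11A, of the recycling endosome, had 0.48 (SE 0.23, adjusted p = 0.248) at a mean level of 151 in the authors' deposited table, and RAB11B 0.31 (SE 0.27, adjusted p = 0.479) at 73.7. RAB4A and RAB4B, of fast recycling, had 0.35 and 0.38 in the authors' deposited table, each with an SE of 0.22. These paralogues had intervals that overlapped throughout.

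The late endosome and lysosome group held both the smallest tested start and one of the largest. RAB12, which acts in transport to lysosomes, had a log2 fold change of 0.09 (SE 0.27) in the authors' deposited table, and RAB24, linked to autophagy, 0.16 (SE 0.23). The RAB24 region also covers MXD3 and PRELID1. RAB39A had 0.70 (SE 0.38, unadjusted p = 0.0650) in the authors' deposited table, in a region that the table also lists at distance 0 for SLC35F2, although it does not overlap the RefSeq body of that gene. RAB29, which binds the kinase LRRK2, had 0.52 (SE 0.25, unadjusted p = 0.0380, adjusted p = 0.246) in the authors' deposited table. RAB7A, which directs late endosomes to lysosomes, had 0.41 (SE 0.24) at a mean level of 119 in the authors' deposited table, and RAB7B 0.40 (SE 0.24) at 117. The values of this pair differed by less than either SE. Of the 7 tested starts of the group, RAB29 was the 1 with an unadjusted p-value under 0.05, beside 19.2% of all tested starts.

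Of the secretory RABs, RAB15 had the largest log2 fold change of a tested start in the authors' deposited table. It was 0.60 (SE 0.36, unadjusted p = 0.0963, adjusted p = 0.339), in a region that also covers CHURC1-FNTB. RAB3D had 0.53 (SE 0.26, unadjusted p = 0.0446, adjusted p = 0.261) in the authors' deposited table, in the shared region named above. The second region, which holds the RefSeq start of RAB3D, had 0.50 (SE 0.30, unadjusted p = 0.100, adjusted p = 0.344) in the authors' deposited table. RAB3A, a synaptic vesicle RAB, had 0.42 (SE 0.27) and RAB27B 0.44 (SE 0.32) in the authors' deposited table. RAB8A and RAB8B, of transport to the plasma membrane and cilium, had 0.35 and 0.39 in the authors' deposited table, and RAB10, which serves GLUT4 transport, 0.36. The strongest secretory start, RAB26, was near the low end, at 0.19 (SE 0.20) in the authors' deposited table. The median of the 9 tested starts of this group was 0.39 in the authors' deposited table. RAB3D, by its shared region, was the 1 of them with an unadjusted p-value under 0.05, beside 19.2% of all tested starts.

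The pair of melanosome RABs had unlike values with overlapping intervals. For RAB38 (chromosome 11, 88173058 to 88176107) the log2 fold change was 0.73 with an SE of 0.27 (unadjusted p = 0.00762, adjusted p = 0.139) at a mean level of 56.9 in the authors' deposited table. RAB32 (chromosome 6, 146543212 to 146547187) had 0.31 with an SE of 0.29 (adjusted p = 0.521) at 61.8 in the authors' deposited table. Their intervals were 0.19 to 1.26 and -0.27 to 0.88. RAB38 was next after RAB6B among tested RAB starts, but after centring its value was 0.40 with a recomputed unadjusted p of 0.139, from the authors' deposited table. The remaining group, of RABs of cilia, SOCS box RABs and little-studied RABs, had 4 tested starts in the authors' deposited table. They lay between 0.18 (RAB40C) and 0.36 (RAB40B). None had an unadjusted p-value under 0.05, beside 19.2% of all tested starts.

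The promoter sequences under these regions were read for short motifs, because H3K27ac at a start flanks the site where factors bind. RefSeq (GRCh38.p14) gave 53 windows of 300 bases, from 250 before to 50 after a start, that lay with their start inside a RAB region, for 40 genes. Genes absent from the set of starts used, RAB38 and RAB1A among them, had no window and were not searched. The median GC content of these windows was 65.0% (42.0 to 82.7%), and that of the 16746 windows with a start inside any tested region was 65.3%. The GC box GGGCGG, searched on both strands, was in 41 of the 53 windows (77.4%), beside 68.1% of windows in tested regions and 44.9% of all 34943 windows. The motif CCAAT was in 35.8% and the ETS motif CCGGAAG in 15.1% of RAB windows, beside 34.2% and 17.6% in tested regions. RAB6B was chosen for the largest fold change at a tested RAB start. The recycling pair RAB11A and RAB11B was chosen for a CCAAT box that only RAB11B held. RAB22A, an early endosome RAB, was chosen for its repeat. The 250 bases before these 4 starts are printed 5′ to 3′ with GC boxes of either strand in capitals. They lie at chr3:133895883-133896132 (minus strand), chr15:65869241-65869490, chr19:8390110-8390359 and chr20:58309465-58309714 (plus strand).
RAB6B: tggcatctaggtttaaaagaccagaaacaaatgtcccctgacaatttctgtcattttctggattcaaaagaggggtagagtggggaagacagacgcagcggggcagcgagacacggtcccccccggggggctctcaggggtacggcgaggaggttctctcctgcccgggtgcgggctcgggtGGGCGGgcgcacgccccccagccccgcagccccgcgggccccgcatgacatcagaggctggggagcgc
RAB11A: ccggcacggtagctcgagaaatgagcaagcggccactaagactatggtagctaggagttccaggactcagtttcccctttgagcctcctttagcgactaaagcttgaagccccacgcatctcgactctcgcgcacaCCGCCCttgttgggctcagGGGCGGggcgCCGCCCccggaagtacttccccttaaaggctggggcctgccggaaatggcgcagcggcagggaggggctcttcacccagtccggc
RAB11B: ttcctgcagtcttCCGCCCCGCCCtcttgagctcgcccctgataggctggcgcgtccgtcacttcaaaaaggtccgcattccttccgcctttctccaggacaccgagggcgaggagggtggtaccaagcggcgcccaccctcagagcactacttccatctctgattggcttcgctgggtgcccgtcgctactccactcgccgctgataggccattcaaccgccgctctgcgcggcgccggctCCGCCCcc
RAB22A: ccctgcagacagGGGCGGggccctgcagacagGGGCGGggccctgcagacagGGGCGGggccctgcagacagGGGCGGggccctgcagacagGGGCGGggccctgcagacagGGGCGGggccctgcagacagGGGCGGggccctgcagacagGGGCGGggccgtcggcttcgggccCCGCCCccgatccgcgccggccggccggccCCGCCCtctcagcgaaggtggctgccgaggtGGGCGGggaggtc

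The RAB22A window held 11 GC boxes, the most of any RAB window, where the next had 8. Of the 10 neighbouring pairs, 7 were exactly 20 bases apart, and the printed letters show the repeated unit. The RAB22A region had a log2 fold change of 0.36 (SE 0.24) and a mean level of 131 in the authors' deposited table, beside the median of 0.35 for all tested starts. The RAB11A and RAB11B windows shared the GC box but not the CCAAT box, which only RAB11B held of this pair.

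The E-box CACGTG, bound by the MITF and TFE family among others, was in the windows of 6 RAB genes: RAB4A, RAB5A, RAB21, RAB24, RAB29 and RAB31. This is 11.3% of RAB windows, beside 9.33% of windows in tested regions. The related CATGTG, a core of the M-box of pigment gene promoters, was in those of RAB3A and RAB17, or 3.77%, beside 7.0%. The longer form CACGTGAC, chosen after these windows had been read, was in 5 RAB windows (9.43%), beside 3.89% of windows in tested regions and 2.39% of all windows. A match is a description of the letters and not a bound site. The windows with a match before the start are shown with 12 bases on each side, 5′ to 3′ on the strand of the gene, with the E-box or M-box core in capitals (for RAB17 it reads on the other strand). They lie at chr1:229270997-229271026 for RAB4A, chr3:19946964-19946993 for RAB5A, chr12:71754831-71754860 for RAB21, chr5:177303732-177303761 (minus strand) for RAB24, chr18:9708229-9708258 for RAB31, chr2:237590738-237590767 (minus strand) for RAB17 and chr19:18204050-18204079 (minus strand) for RAB3A.
RAB4A: gcccagcccgcgCACGTGcttccggcgcgc
RAB5A: cactcgcagggtCACGTGacatcctgcctc
RAB21: ggcaccggcgctCACGTGacccgaggtgtg
RAB24: cggcgcccgcgcCACGTGaccttgcggccc
RAB31: ccggccggcggcCACGTGacccaccgcggc
RAB17: gcctcaggtgacCACATGaccactgtggac
RAB3A: cggacttatctaCATGTGaggctccgcccc

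The genes with an E-box before the start did not lie together in fold change. In the authors' deposited table RAB31 had 0.57 and RAB5A 0.47, RAB4A lay at 0.35, and RAB21 and RAB24 at 0.20 and 0.16. The matches thus ran from 0.16 to 0.57 among the starts that were searched. Starts with no window included RAB38 (0.73), RAB1A (0.61) and RAB12 (0.09), so whether they hold a match is not known here.

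Away from starts, 186 regions were assigned to RAB genes in the authors' deposited table, of which 111 overlapped the RefSeq body of their own gene and 75 did not. Exons and introns were not analysed here. The 50 tested among them had a median log2 fold change of 0.34 (extremes -0.38 and 0.85) in the authors' deposited table, beside 0.31 for all tested regions away from starts. An unadjusted p-value under 0.05 was found for 10 of the 50 in the authors' deposited table, all positive, beside 17.5% of all tested regions away from starts. The 29 tested regions inside gene bodies had a median of 0.39 and the 21 outside 0.22 in the authors' deposited table, a difference that was not tested. Of the 21 outside, 5 were RAB28 regions, 153603 to 874088 bases off. The same split was not made over all regions. A region named with a gene was assigned by position, and the farthest lay 946 kb from the start of its gene.

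RAB11B had the smallest adjusted p-value of all RAB regions, and not at its start. A region of 2987 bases inside the gene, 2613 bases from the start (chromosome 19, 8393001 to 8395988), stood at a log2 fold change of 0.75 with an SE of 0.26 (unadjusted p = 0.00426, adjusted p = 0.108) at a mean level of 71.1 in the authors' deposited table. The next region, 6323 bases from the start (chromosome 19, 8396711 to 8397920), had 0.85 with an SE of 0.37 (unadjusted p = 0.0218, adjusted p = 0.204) at 26.7 in the authors' deposited table. The RAB11B start between these and the neighbouring gene ANGPTL4 had 0.31. After centring, the 2 gene-body regions had 0.43 and 0.52 with unadjusted p-values of 0.103 and 0.156 computed from the authors' deposited table.

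ANGPTL4, a lipoprotein lipase inhibitor and a target of fatty acid receptors of the PPAR family, lies beside RAB11B. Its start region of 17507 bases ended 19108 bases before the RAB11B start and had 1.57 (SE 0.20, adjusted p = 3.96e-10) in the authors' deposited table. Within 60 kb on each side of the RAB11B start there were 16 regions, of which 8 were tested. In the authors' deposited table all 8 were positive, 4 of them at an unadjusted p-value under 0.05, beside 87.3% positive and 17.9% positive at that p-value among all tested regions. The 4 include the RAB11B gene-body regions, which hold the smallest RAB adjusted p-value, and the ANGPTL4 region. These counts therefore describe the locus and are no test of enrichment. The only call was the ANGPTL4 region. The fourth region with a small p-value was at the start of MARCH2, 22086 bases beyond the RAB11B start, with 0.99 (SE 0.39, adjusted p = 0.161) in the authors' deposited table. The other tested MARCH2 regions had 0.07 (SE 0.39) and 0.21 (SE 0.25) in the authors' deposited table. Farther on, at the start of HNRNPM, the value was 0.12 (SE 0.21) in the authors' deposited table.

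**Figure D4:**
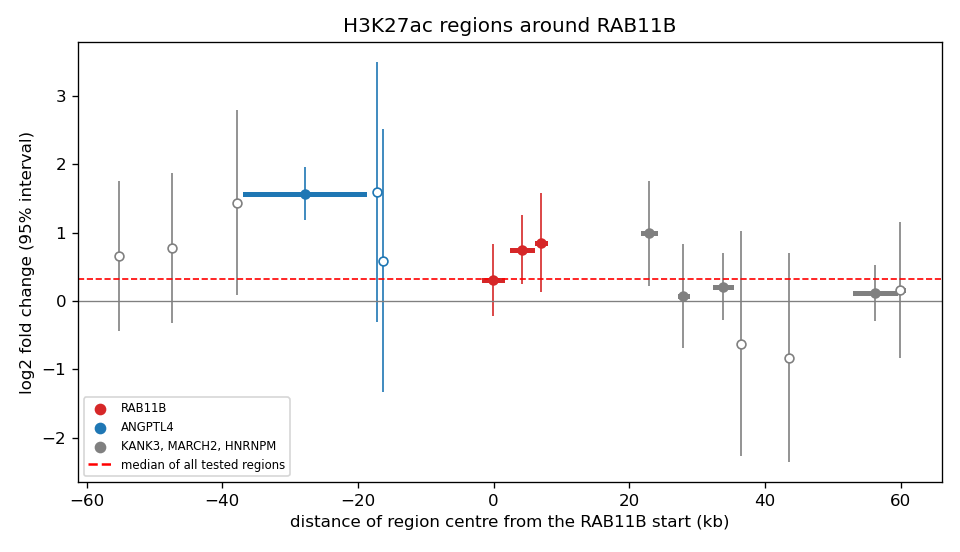
Log2 fold change with its 95% interval for the 16 regions within 60 kb of the RAB11B start, plotted by distance of the region's centre from that start, with thick bars for region width and open points for regions without an adjusted p-value. The RAB11B start (0.31) lies close to the dashed line, the median of all tested regions (0.32), between the ANGPTL4 region at 1.57 and the 2 RAB11B gene-body regions at 0.75 and 0.85.

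RAB7A and RAB7B both had tested regions away from the start named above. RAB7A had 7 regions away from its start, all overlapping the gene body, and the 4 tested ones, 59896 to 76494 bases from the start, had 0.51 (SE 0.24), 0.64 (SE 0.35), 0.14 (SE 0.30) and 0.55 (SE 0.22) in the authors' deposited table. Unadjusted p-values of the first and the last were 0.0340 and 0.0136 in the authors' deposited table, with adjusted values of 0.237 and 0.173. RAB7B had a second region 8314 bases from the start (chromosome 1, 205993547 to 205995148), which holds another RefSeq start of the gene. Its log2 fold change was -0.38 with an SE of 0.32 in the authors' deposited table (unadjusted p = 0.232, adjusted p = 0.470), the lowest of all tested RAB regions, while the first start had 0.40. After centring it was -0.70, with a recomputed unadjusted p of 0.0265, from the authors' deposited table.

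Much of the remaining set came from few genes, since 8 genes with 10 or more regions held 94 of the 236. RAB28 and RAB8B had 15 regions each, RAB10 had 12. All 14 RAB28 regions away from the start lay outside the gene body, and the 5 tested ones lay 153603 to 874088 bases off. Of these the farthest had 0.76 (SE 0.30, unadjusted p = 0.0114) and the one at 393874 bases -0.36 (SE 0.29) in the authors' deposited table. The latter was, beside RAB7B, the other region below an unadjusted p-value of 0.05 after centring (0.0187), at -0.69. RAB8B had -0.01 (SE 0.26) in a region 1668 bases before its start and 0.63 (SE 0.27, adjusted p = 0.195) in one 43074 bases inside the gene in the authors' deposited table. For RAB30, a Golgi RAB, 6 tested regions of the gene body ran from -0.21 to 0.46 in the authors' deposited table. The region at 0.46, 36933 bases from the listed start, holds another RefSeq start of RAB30. The gene-body region of RAB22A at 30435 bases had 0.60 (SE 0.25, adjusted p = 0.186) and that of RAB3D at 21262 bases 0.64 (SE 0.27, adjusted p = 0.195) in the authors' deposited table. Outside their gene bodies, the RAB10 region at 23540 bases had 0.59 (SE 0.28) and the RAB3B region at 14701 bases 0.57 (SE 0.29) in the authors' deposited table. RAB20 had its highest mean level not at the start (180 over 4486 bases) but 30154 bases away in the gene body, at 268 over 7680 bases. Per kb the start was higher, at 40.1 against 34.9, and level followed width over the 50 RAB starts (Spearman rho 0.892, a description across regions). The gene-body region had a log2 fold change of 0.21 (SE 0.21) in the authors' deposited table.

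**Figure D5:**
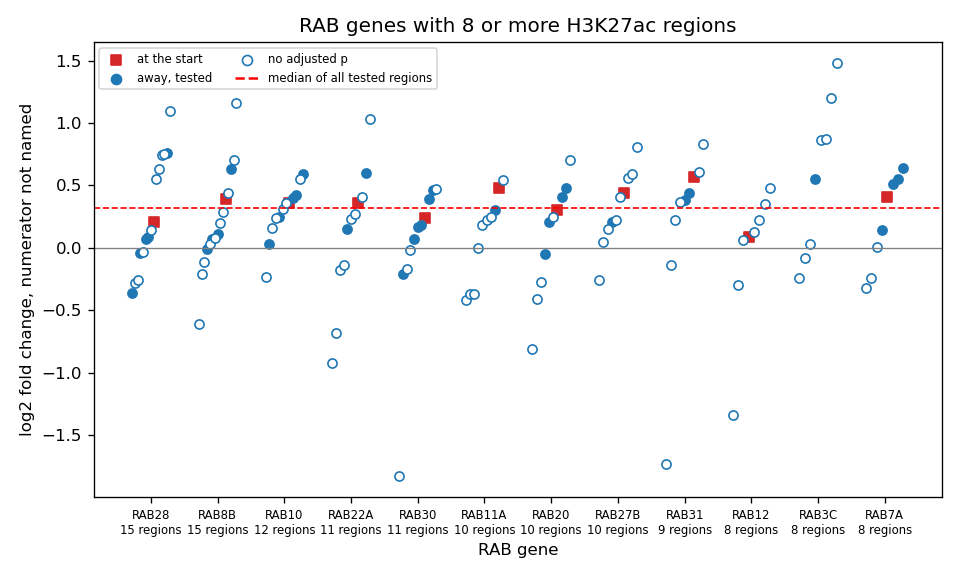
Log2 fold change of every region of the 12 RAB genes with 8 or more regions, with squares for regions at the start, filled circles for other tested regions and open symbols for regions without an adjusted p-value. The open symbols spread widest, down to -1.83 at RAB30, while the tested ones lie between -0.36 and 0.76.

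The proteins that act on RABs were described by 4 lists. Regions of 8 genes for GDIs, escort and prenylation factors had 0 calls among 12 tested, with a median log2 fold change of 0.29 in the authors' deposited table. The exchange factors had 0 calls among 103 tested regions of 33 genes, a median of 0.32 and 17 positive regions (16.5%) at an unadjusted p-value under 0.05 in the authors' deposited table. The GTPase-activating proteins had 1 call among 115 tested regions of 37 genes, a median of 0.26, and 11 positive regions (9.57%) and 1 negative one at that p-value in the authors' deposited table. Among all tested regions 1.67% were called, 17.9% were positive and 0.475% negative at that p-value, and the median was 0.32. The called region was assigned to TBC1D19 and lay outside its gene body, 13529 bases from the start (chromosome 4, 26565496 to 26570387), with 0.93 (SE 0.26, adjusted p = 0.0311) in the authors' deposited table.

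The effectors had 3 calls among 96 tested regions of 37 genes, a median of 0.34 and 20 positive regions (20.8%) at an unadjusted p-value under 0.05 in the authors' deposited table. The share of positive regions is near the 17.9% of all tested regions, of which 1.67% were called. The calls were assigned to MYRIP and MLPH, which link RAB27 proteins to myosin motors, and to RPH3A, which binds RAB3 and RAB27 proteins on secretory vesicles. The MYRIP region (chromosome 3, 39916216 to 39919616), in the gene body and 107303 bases from the start, had 1.77 (SE 0.36, adjusted p = 0.00152), and the MLPH region (chromosome 2, 237457856 to 237462108), outside the gene body and 24302 bases from the start, had 1.12 (SE 0.27, adjusted p = 0.00915) in the authors' deposited table. The RPH3A region, in the gene body and 261726 bases from the start, had 0.79 (SE 0.22, adjusted p = 0.0342) in the authors' deposited table. After centring none of the 4 calls passed. The smallest adjusted p-value among them, computed from the authors' deposited table, was then 0.0556 for MYRIP.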

How the data were processed

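The values are those of 1 table of the authors' own comparison of 2 vehicle and 2 octanoate libraries. The submitters' processing notes name Bowtie2, MACS2, featureCounts, DESeq2, bedtools 2.29.1 and the build hg38, with no role or order, and whether replicates were pooled is not given in the sources used here. Per the file headers, the deposited columns are a mean normalized signal, a log2 fold change and its standard error, a score equal to their ratio, and unadjusted and adjusted p-values. An adjusted p-value of 1 in the deposited table was read as not computed, since Benjamini-Hochberg adjustment over the other 36436 regions gave the deposited values back to within 1.58e-14. The distance is the deposited one. Lines repeating a region for another gene were merged.

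The test planned across libraries could not be run, because the table has no value per library (0 such columns were left out). Python 3.11.15, pandas 2.3.3, numpy 2.4.6 and scipy 1.17.1 were used for intervals (95%), centring and motif searches, and centring and adjustment were tested on simulated data. Starts and sequences came from RefSeq (GRCh38.p14). The naming rule took the 10 highest and 10 lowest tested fold changes at starts and away from them, the 5 regions of highest level and the 5 widest. It also took RAB38, RAB32, RAB18 and the RAB5, RAB7 and RAB11 paralogues, and genes with no region at their start. The 3 genes with most regions and called regions of the lists completed it. Not every region so chosen is described above. Among those left out, away from starts, are RAB40C at 36162 bases (0.67), RAB17 at 11771 bases (0.60) and RAB2A at 102351 bases (-0.10). Further ones are RAB20 at 38821 bases (-0.05) and RAB28 at 153603 bases (-0.04), all from the authors' deposited table. Other genes named were chosen after their values were seen. The members and lists were chosen with earlier results of these data known. Alternatives covered the threshold, adjustment, centring, level and choice of regions.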

Additional observations from a re-analysis of the deposited data

How the results depend on the processing

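The count of 0 RAB calls held under adjustment over all lines or all distinct regions and under both centrings. A threshold of 0.01, a minimum fold change and the subsets of regions tried gave 0 as well. These last settings could give nothing else, since the smallest deposited adjusted p-value of a RAB region was 0.108. The count of regions with an unadjusted p-value under 0.05 was 20 as deposited and 2 after centring on the median of tested regions or of all distinct regions, and for tested regions 0 were in both sets. It was 10 at starts and 23 with regions that have no adjusted p-value, a setting added after seeing the data. The median log2 fold change of all RAB regions was 0.28, and it was 0.36 for levels of 10 or more, 0.36 for tested regions, 0.39 at starts and 0.22 away from them. Centred on the median of all distinct regions it was -0.00. For RAB regions of level 10 or more, centred on the median of all distinct regions of that level, it was 0.04. The share of positive RAB regions was 77.1%, and 91.1%, 92.8%, 100% and 71.0% in those 4 subsets, and 50% after centring. The cause was not tested. Of the 90 positive tested RAB regions, 33 were negative after centring on the median of tested regions. Of 51 regions chosen by the naming rule, 17 turned sign and 0 passed. Their centred values were -0.01 at RAB11B, -0.23 at RAB12, -0.07 at RAB13, -0.09 at RAB14, -0.12 at RAB21, -0.16 at RAB24, -0.14 at RAB26, -0.11 at RAB28, -0.04 at RAB2A, -0.08 at RAB30, -0.02 at RAB32, -0.15 at RAB40C and -0.03 at RAB5C for starts, and -0.30 (RAB10), -0.12 (RAB20), -0.32 (RAB42) and -0.25 (RAB8B) away from starts. Other RAB regions with printed values that turned were the RAB2B start (-0.04), RAB43 at 386 bases (-0.09) and RAB7A at 73288 bases (-0.18). Near RAB11B, the tested MARCH2 regions away from its start (-0.25 and -0.11) and the HNRNPM start (-0.21) turned too. No paired analysis was possible because values of single libraries were lacking, and leaving out single libraries and a rerun of the count test were not run for the same reason.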
